A study of Mus musculus with 2 samples.

Results

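The genes described here encode enzymes and partners that write or erase methyl groups on histone H3: Ezh2, Ezh1, Suz12, Eed and Jarid2 of Polycomb repressive complex 2 (PRC2), the H3K27 demethylases Kdm6a and Kdm6b, and the H3K4 methyltransferases Kmt2a, Kmt2c and Kmt2d. They were taken by name from the 21883 protein-coding genes that the RefSeq table of GRCm38.p6 places on the autosomes, X and Y, and there are 10. Every listed peak with its summit inside one of these genes or within 50 kb of either gene end was counted. That gave 168 of 240661 peaks from the IL-4 library and 67 of 149349 peaks from the untreated one. CUT&Tag, in which an antibody brings a transposase to chromatin and nearby DNA is tagged for sequencing, was used with an antibody to PHLPP1, a protein phosphatase known for dephosphorylating AKT. The cells were mouse primary macrophages grown from bone marrow with M-CSF at 20 ng/ml. One group had IL-4 at 20 ng/ml for 4 h and the other was untreated, and both were taken as wild type from the series design. Each group had 1 library, so nothing below compares the groups by a test. No library of Phlpp1-deficient cells, control antibody or input was analysed here.

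PRC2 places methyl groups on lysine 27 of histone H3, a mark of repressed genes, through either of its catalytic subunits EZH2 and EZH1. SUZ12 and EED are core subunits that the enzyme needs, and JARID2 is a partner that helps bring the complex to DNA. KDM6A and KDM6B remove the mark, and KDM6B is known in mouse macrophages as a gene induced by inflammatory stimuli and by IL-4. KMT2A, KMT2C and KMT2D methylate lysine 4 of histone H3, a mark of promoters and enhancers, and KDM6A is also a subunit of the KMT2C and KMT2D complexes.

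The promoters of Jarid2, Suz12 and Eed are shown because an IL-4 peak past q 0.05 covered the whole window of each, and that of Kmt2a because no peak summit of either list lay within 1 kb of its start site. The Ezh2 window was also covered in full, by a peak of 3 fragments, and is not shown, nor is the second Jarid2 window, of which 217 of 300 bp were covered. The windows are RefSeq sequence of GRCm38.p6, from 250 bases before to 50 after an annotated start site, written 5′ to 3′ on the gene's strand. Capitals mark matches on either strand to 8 motifs. The GC box was searched as GGGCGG, and the CCAAT box as the letters of its name. For the ETS core, bound by factors of that family, the letters were CCGGAA, and the E-box stood as CACGTG. The spacing that STAT6 prefers was taken as TTC, then any 4 bases, then GAA. The core that THAP11 and ZNF143 sites share was taken as ACTACAA. The YY1 core was searched with any base at N, as CCATNTTG, and the NRF1-type site as GCGC, then any base, then TGCGC.
Jarid2, chr13:44730524-44730823, plus strand: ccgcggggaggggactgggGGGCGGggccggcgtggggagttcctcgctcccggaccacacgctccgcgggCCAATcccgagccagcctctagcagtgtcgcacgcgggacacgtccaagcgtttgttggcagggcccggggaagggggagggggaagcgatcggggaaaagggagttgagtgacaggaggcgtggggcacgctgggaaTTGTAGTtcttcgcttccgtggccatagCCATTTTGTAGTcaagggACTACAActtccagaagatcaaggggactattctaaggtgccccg
Suz12, chr11:79992856-79993155, plus strand: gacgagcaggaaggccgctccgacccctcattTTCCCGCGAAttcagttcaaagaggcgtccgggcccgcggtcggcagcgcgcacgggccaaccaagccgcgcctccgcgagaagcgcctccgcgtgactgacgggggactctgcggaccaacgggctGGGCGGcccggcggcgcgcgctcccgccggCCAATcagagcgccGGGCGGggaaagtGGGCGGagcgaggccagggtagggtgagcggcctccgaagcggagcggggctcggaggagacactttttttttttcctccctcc
Eed, chr7:89980927-89981226, minus strand: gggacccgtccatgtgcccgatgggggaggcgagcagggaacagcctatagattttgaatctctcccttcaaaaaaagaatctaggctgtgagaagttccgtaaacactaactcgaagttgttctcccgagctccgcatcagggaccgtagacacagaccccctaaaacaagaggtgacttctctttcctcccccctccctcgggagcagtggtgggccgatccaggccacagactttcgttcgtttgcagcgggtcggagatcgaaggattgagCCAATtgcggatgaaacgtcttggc
Kmt2a, chr9:44881240-44881539, minus strand: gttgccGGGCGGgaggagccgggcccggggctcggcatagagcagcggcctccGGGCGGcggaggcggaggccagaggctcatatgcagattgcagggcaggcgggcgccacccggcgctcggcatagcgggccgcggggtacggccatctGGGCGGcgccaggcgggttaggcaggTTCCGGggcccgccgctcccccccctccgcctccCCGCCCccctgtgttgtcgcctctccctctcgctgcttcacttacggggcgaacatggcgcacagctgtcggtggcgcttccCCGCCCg

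The Jarid2 window held 3 matches to ACTACAA, at positions -41, -8 and 6 counted from the start site as position 1, and a match to the YY1 core at -13 that shares 3 bases with the middle match. The letters ACTACAA were present in 3.60% of the 21262 promoter windows of protein-coding genes, at least 3 times in 2 of them (0.00941%), and the YY1 core in 5.18%. Both were searched after the Jarid2 sequence had been seen. The Suz12 window had 3 GC boxes, a CCAAT box and a match to TTC and GAA with 4 bases between them at -218, a spacing found in 6.35% of windows. The Eed window had only a CCAAT box at 26, which 38.2% of windows hold. The Kmt2a window had 5 GC boxes (46.2% of windows have at least 1) and an ETS core (18.7%). The E-box (7.84% of windows) was found among these genes in Kdm6a alone, and the NRF1-type site (6.38%) in Ezh2 and Ezh1. A match of letters is a description and not a bound site.

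The lists differed in length and in what they could hold. The number of fragments at each summit was solved from the deposited fold and p-value. It is the height at the summit, not the total of fragments in the peak. The lowest number listed was 3 with IL-4 and 4 untreated, and the lowest local background was 0.643 and 0.936 fragments. Peaks of the lowest number made up 32.3% of the IL-4 list and 32.5% of the untreated list, and in the loci of these genes 50 of 168 and 26 of 67. Intervals given with fragments are exact Poisson 95% intervals of the number at the summit and cover counting error only. PCR copies are not independent molecules, and any among the fragments would make the intervals too narrow. Of all genes, 49.3% had a peak within 1 kb of an end with IL-4 and 22.7% in untreated cells. Of 8 macrophage marker genes, 4 had an end peak with IL-4 and 1 in untreated cells, and of 5 neutrophil markers 2 and 0 did. The T and NK cell markers had 3 and 2 of 4, the B cell markers 0 and 1 of 3, and the 3 stromal and 3 erythroid markers none. A peak list does not measure RNA, so this names no cells.

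Jarid2 had the strongest peak of the set, at its start site. In the IL-4 list it had 14 fragments (7.65 to 23.5), a width of 892 bp and a −log10 q of 7.56 on chr13:44730346-44731237, with the summit 213 bp upstream of the start site. The untreated list had a peak inside the same interval, of 4 fragments (1.09 to 10.2), 145 bp wide, at a −log10 q of 0.408. The deposited fold over the local background was 7.49 with IL-4 and 2.58 without. The intervals of the fragment numbers overlapped. Jarid2 was the only one of the 10 genes whose end peak passed a −log10 q of 5 with IL-4, against 2.62% of all genes, and none of the 10 did so in untreated cells, against 0.0548%.

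Of the PRC2 core, Eed and Suz12 had IL-4 peaks past q 0.05 at their start sites, and the 2 genes of the catalytic subunits had peaks of the lowest listable number. Eed had 8 fragments (3.45 to 15.8) on chr7:89980765-89981370, 606 bp wide, at a −log10 q of 3.01, and no untreated peak within 1 kb of its start site. Suz12 had 7 fragments (2.81 to 14.4) on chr11:79992625-79993311, 687 bp wide, at a −log10 q of 2.31, and no untreated peak in the gene at all. Ezh2 had an IL-4 peak 886 bp wide with 3 fragments (0.619 to 8.77) at its summit. That summit lay 390 bp upstream of the start site and within 1 kb of an end of F830010H11Rik. Ezh1 had an IL-4 peak of 3 fragments 173 bp downstream of its start. A −log10 q of 0.393, that of both, is the lowest in the IL-4 list. The nearest untreated peak to the start of Ezh2 was 3511 bp upstream, with 7 fragments (2.81 to 14.4) at a −log10 q of 1.57. It was the only peak of either list past q 0.05 in the Ezh2 locus. For Ezh1 the nearest untreated peak to the start was 11403 bp away.

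At the 3′ end of Eed the lists shared a site. The IL-4 peak, 342 bp wide, and the untreated peak, 150 bp wide, overlapped by 140 bp and had 6 fragments each, with −log10 q of 1.84 and 1.11. Eed thus counted as a gene with an end peak in both lists, while its start-site peak stood in the IL-4 list only.

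**Figure D1:**
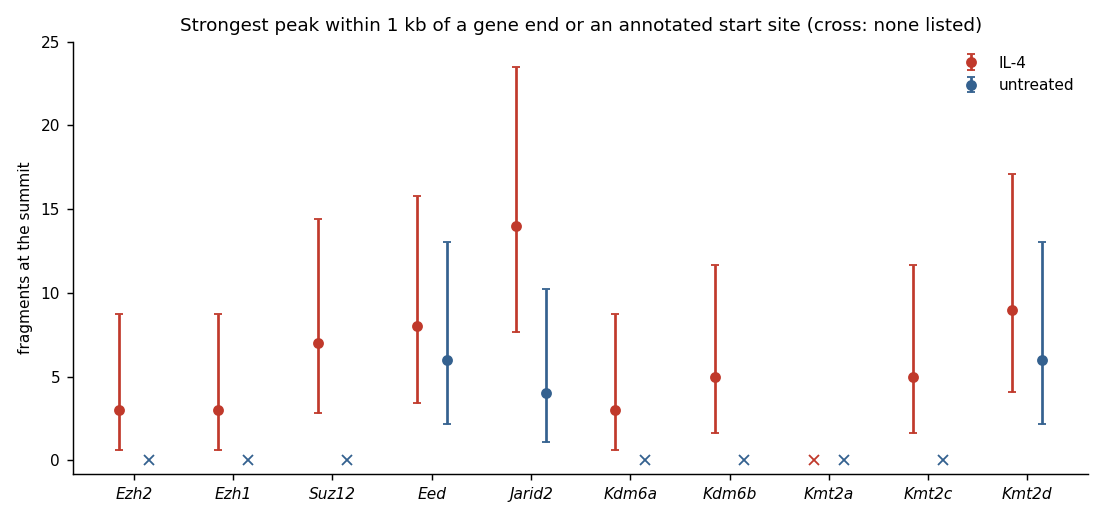
Fragments at the summit of the strongest peak (highest −log10 q) within 1 kb of a gene end or an annotated start site, for each gene, in the IL-4 list (red) and the untreated list (blue). Bars are exact Poisson 95% intervals, n = 1 library per group, and a cross means that no such peak was listed, not that 0 fragments were measured. Jarid2 stands highest with 14 fragments in the IL-4 list. For Eed the IL-4 peak of 8 lies at the start and the untreated peak of 6 at the 3′ end.

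Kdm6b, the inducible demethylase gene, had its strongest IL-4 peak inside the gene, away from its annotated ends. No start site of Kdm6b was available, so its peaks were not placed relative to one. The strongest peak, 1218 bp wide on chr11:69408799-69410016, had 13 fragments (6.92 to 22.2) at its summit and a −log10 q of 3.90. Its summit lay 10600 bp from the nearer gene end. Another of 8 fragments followed on chr11:69410524-69410914, at a −log10 q of 1.14. The IL-4 list had 7 peaks in this gene of 21.9 kb, or 3.20 per 10 kb, the highest of the 10 genes and set beside a median of 0.942 over all genes. The untreated list had 2 peaks in the gene, or 0.915 per 10 kb against a median of 0.303. They had 5 fragments (1.62 to 11.7) and 7 fragments (2.81 to 14.4). Summed over the bodies of all 10 genes the density was lower than over all genes, at 0.791 peaks per 10 kb against 1.04 with IL-4, and 0.319 against 0.630 in untreated cells.

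The local background under the IL-4 peaks in Kdm6b was raised as well, up to 1.95 fragments, with a median of 1.40 over the 7 peaks. In the other 9 genes the body peaks reached at most 1.21 in the IL-4 list. The untreated background in Kdm6b was 0.936 and 0.940, at or next to the lowest of that list. A background of at least 1.5 fragments, a limit set after these values were seen, was found under 3 of the 168 IL-4 peaks, all in Kdm6b, and under 0.111% of the IL-4 list. None of the 67 untreated peaks reached it, against 0.893% of the untreated list. Because the caller divides by this background, the fold and q of the Kdm6b peaks are lower than their fragment numbers alone would give.

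At one end of Kdm6b the peaks of the lists overlapped by 213 bp. The IL-4 peak, 213 bp wide, had 5 fragments (1.62 to 11.7) at its summit. The untreated peak, 751 bp wide, had 7 fragments (2.81 to 14.4), and the deposited folds were 2.50 and 4.12. The IL-4 summit was 843 bp from the gene end and the untreated summit 1202 bp, so Kdm6b was classed as IL-4-only by its ends, although its −log10 q was 0.509 with IL-4, against 1.57 for the overlapping untreated peak.

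Kdm6a lies on chromosome X and had the fewest peaks. The IL-4 list had 3 peaks in the gene, of 3 fragments each, and the untreated list had none within 50 kb. An IL-4 summit lay 43 bp downstream of the start site and another 658 bp upstream of it. Chromosome X held 2937 IL-4 peaks (1.22% of the list) and 1001 untreated peaks (0.670%). Of its 966 protein-coding genes, 16.3% had an end peak with IL-4 and 2.17% in untreated cells, and 50.3% had no untreated peak within 50 kb, as Kdm6a did, against 6.65% of all genes. The part of the low coverage of X in the values of Kdm6a was not tested.

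Among the H3K4 methyltransferase genes, Kmt2d had its strongest peak upstream of its start site and Kmt2a had none there. In Kmt2d an IL-4 peak of 9 fragments (4.12 to 17.1) lay on chr15:98871801-98872002, 689 bp upstream, at a −log10 q of 4.19. An untreated peak of 6 fragments (2.20 to 13.1) lay 534 bp upstream at a −log10 q of 1.11, close to it but not overlapping. The RefSeq gene reaches further upstream than this start site, so these peaks are more than 1 kb from the annotated gene end. The gene-end peak that placed Kmt2d in the IL-4-only class was at its 3′ end, with 8 fragments and a −log10 q of 1.84, with an end of Prkag1 nearby. Kmt2c had IL-4 peaks of 4 and 5 fragments, 287 and 712 bp upstream of its start and within 1 kb of an end of 4831440E17Rik, and no untreated peak closer than 3038 bp.

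In Kmt2a the strongest IL-4 peak lay inside the gene, as it did in Kdm6b. An IL-4 peak with 10 fragments (4.80 to 18.4) at its summit and a −log10 q of 5.36 lay on chr9:44834743-44835158. It was inside the gene and 46463 bp downstream of the start site. No untreated peak overlapped it. The strongest untreated peak of the gene, of 8 fragments (3.45 to 15.8) and 587 bp wide, was 61709 bp downstream of the start. The nearest summits to the start site were 2249 bp away in the IL-4 list and 2819 bp away in the untreated list. The other peak of 10 fragments counted for Kmt2a belonged by position to the end of Atp5l, which encodes a subunit of the mitochondrial ATP synthase, 63 bp from the summit. The untreated list had 5 fragments there.

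**Figure D2:**
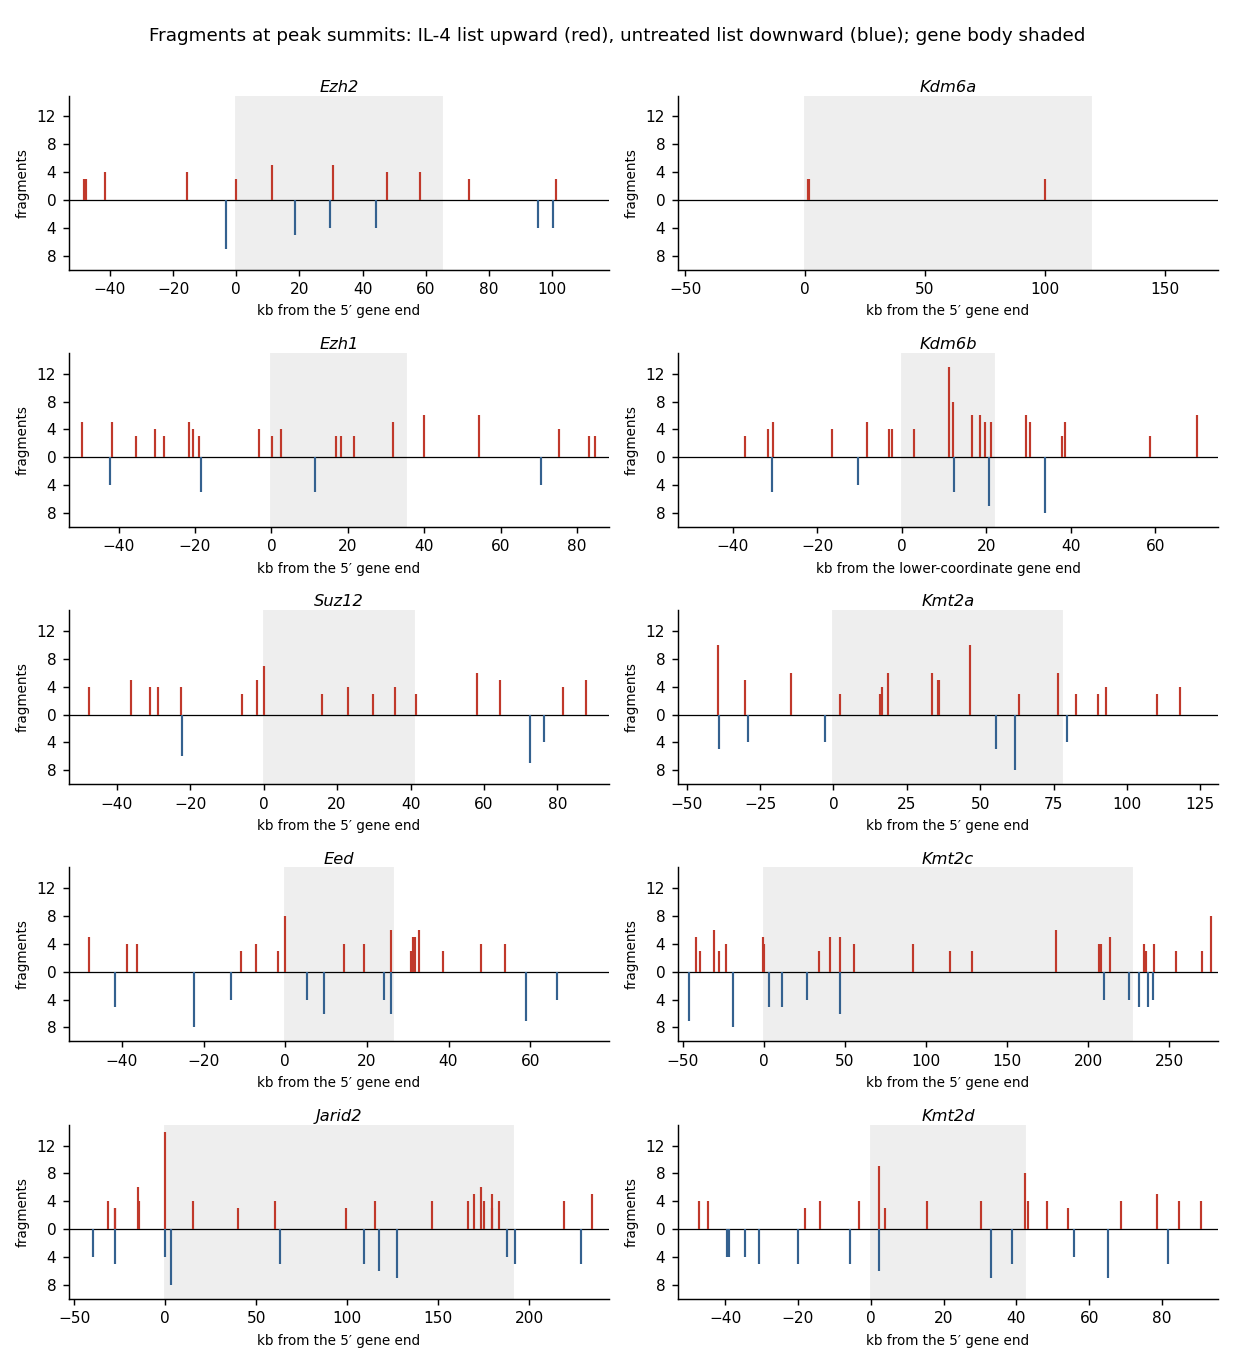
Fragments at each peak summit by distance in kb from the 5′ end of the gene (for Kdm6b, whose strand was not taken, from the lower-coordinate end), with IL-4 peaks drawn upward in red and untreated peaks downward in blue. The gene body is shaded and 1 library per group is shown. The tallest lines are at the start of Jarid2 (14 fragments) and inside Kdm6b (13 fragments), both with IL-4, and no untreated line passes 8.

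By gene-end class, 8 of the 10 genes had a peak within 1 kb of an annotated end with IL-4, against 49.3% of all genes, and 2 had one in untreated cells, against 22.7%. The 8 were all but Kdm6a and Kmt2a, and the 2 were Eed and Jarid2. The IL-4-only class held 6 of the 10, against 35.5% of all genes, the class with peaks in both lists 2 (13.8%), the untreated-only class 0 (8.93%) and the class with neither 2 (41.8%). At q of at most 0.05, Jarid2, Eed, Suz12 and Kmt2d, or 4 of the 10, kept an IL-4 gene-end peak, against 18.3% of all genes, and none had an untreated one, against 4.02%. With the IL-4 list shortened to the length of the untreated one, 5 of the 10 had an end peak in it, against 38.8% of all genes, and 3 in it only, against 27.7%. With a window of 3 kb, 10 had an end peak with IL-4 (73.5% of all genes) and 6 in untreated cells (46.2%), and 4 were IL-4-only (34.9%).

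By start site, the RefSeq promoter table held 9 of the 10 genes, all but Kdm6b. Of these 9, 8 had an IL-4 summit within 1 kb of a start, against 43.3% of the 17491 genes in that table. In the untreated list 2 of 9 had one, Jarid2 and Kmt2d, against 15.6%. Kmt2a was the exception with IL-4. By class, 6 of the 9 genes had a start-site peak with IL-4 only (34% of the table), 2 in both lists (9.3%), 0 in untreated cells only (6.28%) and 1 in neither (50.4%). All 9 genes had promoters of at least 17 CpG dinucleotides, with a median of 27 in the 300-base window and 15 over all genes. The start-site share was higher at promoters with more CpG: with at least 15 CpG it was 58.9% with IL-4 and 17.5% in untreated cells. These shares are the nearer background for the 8 of 9 and 2 of 9. The part of CpG content in the members' share was not tested.

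**Figure D3:**
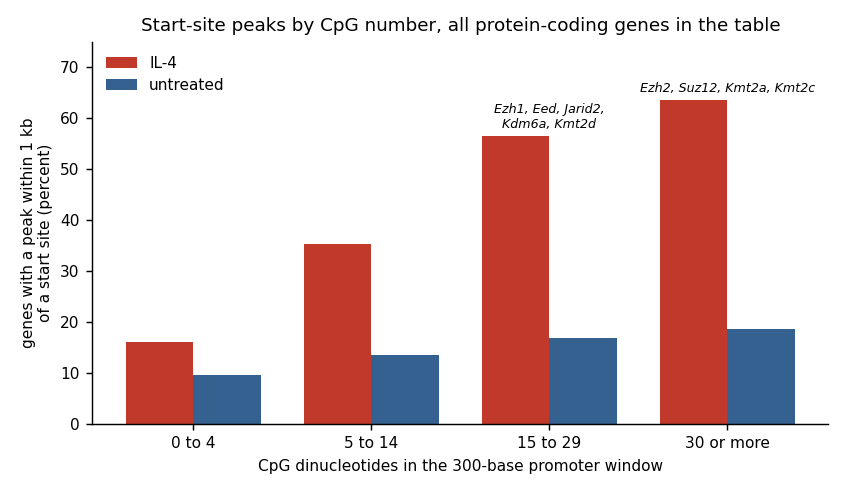
Percent of protein-coding genes with a peak summit within 1 kb of a start site, by the number of CpG dinucleotides in the 300-base promoter window (the window with most CpG for each gene), in the IL-4 list (red) and the untreated list (blue). The IL-4 share is 16.1% at 0 to 4 CpG and 63.6% at 30 or more, and the untreated share 9.58% and 18.7%. The names show the class of each of the 9 genes, with 5 at 15 to 29 CpG and 4 at 30 or more.

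Counted over the whole loci, every one of the 10 genes had more IL-4 than untreated peaks. The whole IL-4 list was 1.61 times as long as the untreated list. The share of all genes with more IL-4 peaks is not given here. Suz12 had 17 with IL-4 and 3 in untreated cells, and Ezh1 had 20 and 4. Kdm6b had 20 and 5, Kmt2a 18 and 6, Kmt2c 24 and 11, and Jarid2 21 and 11. Eed had 17 and 9, Ezh2 11 and 6, Kmt2d 17 and 12, and Kdm6a 3 and 0. The log2 of (IL-4 peaks + 1)/(untreated peaks + 1) ran from 0.47 in Kmt2d to 2.17 in Suz12. Its median was 1.25 over the 10 genes and 0.79 over all genes. A ratio of at least 1 was reached by 6 of the 10, against 40.6% of all genes.

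These ratios rested largely on weak peaks. With peaks of at least 4 fragments only, the lowest number both lists could hold, the median was 0.50 over the 10 genes and 0.30 over all genes. Ezh2 had 6 peaks in each list and Kdm6a none in either. At q of at most 0.05 there were 24 IL-4 peaks (14.3% of those in the loci, against 12.5% of the IL-4 list). Untreated peaks at that threshold numbered 13 (19.4%, against 14.6% of the untreated list). The median of the 10 genes was then 0.42, below the 0.58 of all genes. The peaks covered 38.9 kb with IL-4 and 14.4 kb in untreated cells, with a median of 4 and 5 fragments.

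**Figure D4:**
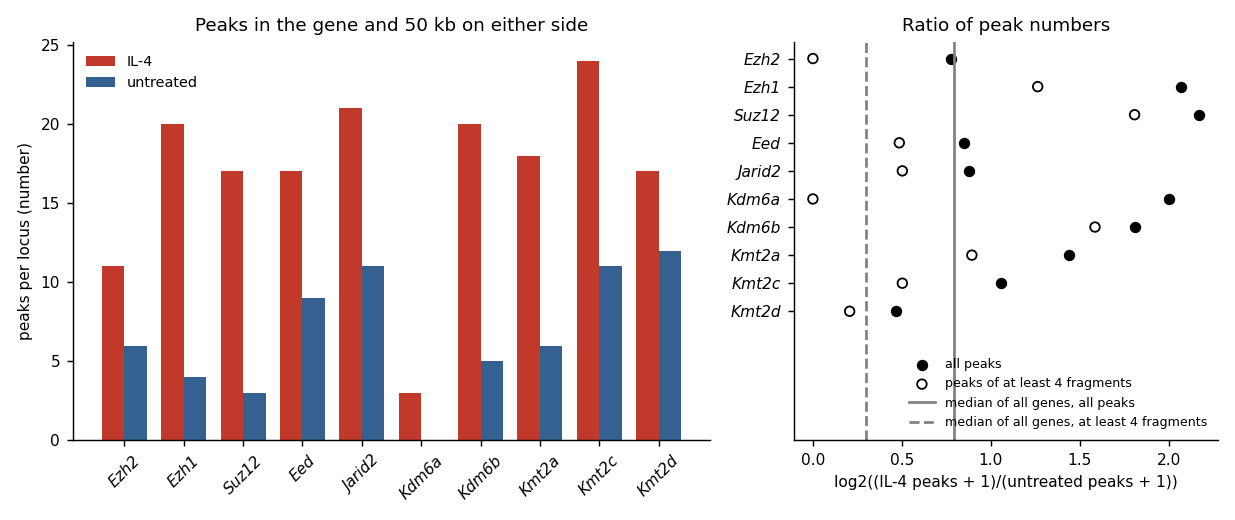
Left, number of peaks in each gene and 50 kb on either side, in the IL-4 list (red) and the untreated list (blue), n = 1 library each. Right, log2 ratio of these numbers with 1 added to each, for all peaks (filled) and for peaks of at least 4 fragments (open), with the medians of all genes at 0.79 (solid line) and 0.30 (dashed line). With all peaks Suz12 lies farthest to the right at 2.17, and 8 of 10 genes lie above the solid line.

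Strong and wide peaks were few in number in these loci. With IL-4 their shares were above those of the whole list, while the untreated shares rested on very few peaks. Of the 168 IL-4 peaks, 9 had at least 8 fragments (5.36%, against 2.01% of the IL-4 list), and of the 67 untreated peaks 5 had (7.46%, against 5.83% of the untreated list). The IL-4 ones include peaks at ends of the neighbours Atp5l and Galnt11, and the untreated ones a peak at an end of Cct8l1. A width of at least 500 bp was found in 7 IL-4 peaks (4.17%, list 2.52%) and 2 untreated peaks (2.99%, list 1.82%). The median width was 314 bp for the 12 IL-4 peaks at the ends of these genes and 162 bp for the others. Counting ends of any protein-coding gene, 28 of the 168 IL-4 peaks (16.7%) and 8 of the 67 untreated peaks (11.9%) lay within 1 kb, against 5.37% and 3.48% of the lists. Part of this follows from the choice of windows, each of which holds a gene.

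The lists overlapped at 7 sites, 4.17% of the IL-4 peaks and 10.4% of the untreated peaks in these loci, against 5.42% and 8.73% of the whole lists. Beside the sites of Jarid2, Eed, Kdm6b and Atp5l given above, they shared a site inside Kmt2c with 5 fragments with IL-4 and 6 in untreated cells, a site upstream of Jarid2 with 3 and 5, and one near Chd3 with 5 and 5. IL-4 fragments were the higher number at 2 of the 7 sites, Jarid2 and Atp5l, and fragments are not scaled for the background. At the edge of the 50 kb window, the last IL-4 summit inside was 49630 bp from Ezh1 with 5 fragments, and the first outside 50262 bp from Kmt2c with 6. In the untreated list the last inside was 45996 bp from Kmt2c with 7 fragments, and the first outside 50322 bp from it with 6.

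Partners of these enzymes, listed by name, were counted the same way. Of 58 genes, 36 had an end peak with IL-4 (49.3% of all genes) and 13 in untreated cells (22.7%), and 29 were IL-4-only (35.5%). At q of at most 0.05 there were 13 with IL-4 (18.3% of all genes) and 2 in untreated cells (4.02%). By group, IL-4-only peaks were found for 5 of 10 PRC2 accessory genes, 7 of 20 genes of Polycomb repressive complex 1 (PRC1), 10 of 16 partners in H3K4 methylation, 3 of 6 H3K4 demethylase genes and 4 of 6 genes of the H2A deubiquitinase and related proteins. Of the 20 PRC1 genes, 11 had an IL-4 end peak and 8 an untreated one (22.7% of all genes), and 4 were untreated-only (8.93% of all genes). Of the 16 partners in H3K4 methylation 2 had an untreated end peak, and the remaining groups had 1 each. The median log2 ratio of peaks in the locus was 1.06 over the 58 genes and 0.79 over all genes.

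Kdm1b, encoding an H3K4 demethylase, had the strongest of these, with 18 fragments (10.7 to 28.4) at a −log10 q of 13.6 with IL-4 and 10 fragments (4.80 to 18.4) at 3.41 in untreated cells. It lies within 1 kb of an end of Tpmt as well. Hcfc1, encoding a cofactor of H3K4 methyltransferase complexes, had an IL-4 peak of 13 fragments at its start at a −log10 q of 8.22 and none in the untreated list. It lies on chromosome X, as Kdm6a does. Kmt2b, a close relative of Kmt2a, had an IL-4 peak of 14 fragments at 7.18 close to an end of Zbtb32 too. Mbd6, with 13 fragments at 3.40 and an end of Ddit3 nearby, and Pcgf3 of PRC1, with 8 at 3.01, had theirs in the IL-4 list only.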

How the data were processed

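PHLPP1 CUT&Tag was measured in 1 IL-4 and 1 untreated macrophage library. The authors deposited 1 narrowPeak list per library. Per the submitters' processing notes, the build was mm10 and the tools named are MACS2 2.2.7.1, Bowtie 0.12.8 and DiffBind. How each was used, any control, duplicates and fragment size: not given in the sources used here. The deposited fold is a linear ratio over the local background, each peak has a deposited −log10 p and a −log10 q from the caller, and the deposited score is −log10 p times 10. They describe peaks within a list and do not test a difference. Total reads were not used.

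Where a peak had several summits, only the entry with the highest −log10 q was kept, which removed 654 IL-4 and 203 untreated entries. Fragments and background were solved from fold = (fragments + 1)/(background + 1) and a Poisson tail, within 0.01 of −log10 p for 100% of peaks, and the solver was tested on simulated data. Coordinates count from 1. Overlap needed 1 bp. Gene ends came from RefSeq GRCm38.p6, the build of mm10, and strand and start sites from its promoter table. A gene-end peak has its summit within 1 kb of either end. Peaks could not be tested between groups. All 10 members were named, as was each partner gene with a gene-end peak at a −log10 q of at least 3, at most 5 a list. Members and lists were chosen with earlier results of these data known. Start sites, CpG classes and motifs were added after seeing the data. Alternatives were windows, thresholds, list length and overlap. Python 3.11.15, pandas 2.3.3 and scipy 1.17.1 were used.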

Additional observations from a re-analysis of the deposited data

How the results depend on the processing

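Of 50 values computed under alternatives, 27 stayed within 1.5 times the reported value and 23 moved further. Some of the 27 could not change, so their number does not measure stability. These include untreated counts at a minimum of 4 fragments or with the IL-4 list shortened. Gene-end and untreated counts without Kdm6a, which had no such peaks, are others. With a gene-end window of 3 kb, 6 members had an untreated gene-end peak (46.2% of all genes). The loci held 95 IL-4 and 35 untreated peaks with a flank of 10 kb, and 259 and 110 with 100 kb. At q of at most 0.05, 4 members had an IL-4 gene-end peak (18.3% of all genes) and 0 an untreated one (4.02%). The loci then held 24 IL-4 peaks (14.3%, list 12.5%) and 13 untreated peaks (19.4%, list 14.6%). The median log2 ratio was 0.42 (all genes 0.58). Past a −log10 q of 5, 1 member had an IL-4 gene-end peak, the same 1 in the IL-4 list only and 0 an untreated one, the loci held 2 and 0 peaks, and the median was 0. The median was 0.50 with at least 4 fragments (all genes 0.30). With the IL-4 list shortened to the untreated length, 5 members had an IL-4 gene-end peak (38.8% of all genes) and 3 in that list only (27.7%), the loci held 105 IL-4 peaks, and the median was 0.44 (all genes 0.17). Of the 7 shared sites, 0 overlapped by at least 50% of both peaks, while 12 IL-4 summits lay within 500 bp of an untreated one. The cause was not tested, beyond the fewer peaks that stricter thresholds and shorter windows hold by construction. The values without Kdm6a and by start site were chosen after seeing the data. No paired analysis was possible because each group has 1 library and no result comes from a test. Numbers of 3 to 14 fragments limit every peak described in these loci.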

Other observations

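Several peaks counted in these loci lay at ends of neighbouring genes. Galnt11, encoding an enzyme that starts O-glycans, had an IL-4 peak of 8 fragments 89 bp from its end in the flank of Kmt2c, and Cct8l1 had an untreated peak of 8 fragments 14 bp from its end. Ramp2, encoding a receptor activity-modifying protein near Ezh1, had 3 IL-4 peaks of 3, 4 and 5 fragments within 1 kb of its ends and no untreated peak there. Ddn, near Kmt2d, had an untreated peak of 7 fragments 875 bp from its end. These neighbours were named after their values were seen.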
